A study of Mus musculus with 3 samples.

Results

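Fibroblasts were found among leukocytes that had been selected for CD45 from infarcted mouse hearts. They were taken as the cells in which Col1a1, Col3a1 and Dcn together made up at least 0.5% of the molecules, with under 25% mitochondrial molecules, under 0.1% C1qa, C1qb and C1qc, and no molecule of Cd3e, Cd3d, Cd3g or Cd79a. Of the 25640 cells with 200 or more genes, 331 met this definition. A further 122 cells had fewer genes and were left out. The hearts had been infarcted by permanent ligation and came from 2 kinds of mice, F7fl/fl CX3CR1Cre and F7fl/fl WT, so that all animals shared the floxed F7 allele, and were taken at more than 1 time point. CX3CR1 is a chemokine receptor of mononuclear phagocytes, which is where its promoter drives Cre. Cells were read on the BD Rhapsody platform in 3 multiplexed libraries, in which 7, 5 and 6 sample tags told the pooled samples apart. Neither the labels nor the headers used here give single tags a genotype or a time, so genotypes and times were not compared.

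Cardiac fibroblasts build the collagen network of the heart wall. After an infarct they divide, take up contractile genes such as Acta2, and lay down scar matrix. Periostin (Postn), a matrix protein, and Cthrc1, a secreted protein, mark this activated state, while Tcf21, a transcription factor of cardiac fibroblasts, and matrix genes such as Dpt and Mgp are known from fibroblasts of the uninjured heart.

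Library 1 differed from libraries 2 and 3 in beads, in pipeline release and in that intronic reads were kept. These differences cannot be told apart from genotype, time or animal where values differ between library 1 and the others. Where values differ between libraries 2 and 3, genotype, time and animal cannot be told apart either. Of the 331 fibroblasts, 81 were in library 1, 98 in library 2 and 152 in library 3. Library 1 also gave deeper fibroblasts, with a median of 43683 to 85806 molecules per cell across its tags, against 11857 to 24729 in library 2 and 22040 to 30596 in library 3. All CPM values below (counts scaled to the usual fixed total) are sums over the fibroblasts of 1 tag. They were computed only where a tag held at least 10 fibroblasts, which 16 of the 18 tags did. Tags 7 and 9 of library 1 held 3 and 8.

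Few cells lay near the limit of the definition. The 3 genes made up a median of 3.42% of a fibroblast's molecules (quartiles 2.36 and 4.46%, highest 8.84%). The lowest fibroblast stood at 0.524%, and the highest cell just below the limit, with the other conditions met, at 0.469%. Only 6 fibroblasts lay between 0.5 and 0.6%, and 3 other cells between 0.4 and 0.5%. Of the 435 cells that passed the collagen limit, 104 were left out by another condition, 53 of them by C1q molecules, 30 by Cd3, 25 by Cd79a and 16 by mitochondrial molecules, with some counted more than once.

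The label fits what the cells held beyond the 3 genes of the rule. All 24 genes of a fibroblast list were at least 2-fold higher in the 331 cells than in the other 25309 cells. Col1a2, the second chain of type I collagen, had 10063, 14532 and 18088 CPM in the lowest, median and highest tag, against a median of 129.8 CPM in the other cells. Sparc, a collagen-binding protein of the matrix, had 8307, 15723 and 19901 CPM, against 164.7 CPM in the other cells. Bgn, a small proteoglycan, had 4695, 7175 and 9704 CPM, against 61.9 CPM. The receptor genes Pdgfra and Ddr2 had medians of 183.9 and 125.1 CPM, against 1.69 and 1.38 CPM in the other cells. These differences follow the definition and were not tested.

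Leukocyte transcripts were scarce in the same cells. A list of 15 leukocyte genes made up a median of 0.0723% of a fibroblast's molecules, against 2.94% in the other cells, and all 15 were at least 2-fold lower. Ptprc, which encodes the selected CD45, had a median of 29.9 CPM (9.31 to 77.4) in fibroblasts and of 793.3 CPM in the other cells. When every cell was thinned to 5000 molecules, a Ptprc molecule was found in 11.6% of fibroblasts and 91.8% of the other cells. Only 7 fibroblasts carried 1% or more of leukocyte molecules, with a highest value of 3.76%. F7, the floxed gene, had 5 molecules in all fibroblasts together, 0.452 CPM, against 20.3 CPM in the other cells.

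Some fibroblasts carried markers of other cell types. Of 11 mesothelial and epicardial genes, at least 3 were found in 30 fibroblasts, and in 21 of these they made up 0.1% or more of the molecules. These 21 cells were spread as 2, 9 and 10 over libraries 1, 2 and 3. The summed level of the 11 genes had a median of 235.7 CPM over tags (3.89 to 923.4), and Cdh1 stood at 0 in the median tag. The list that most fibroblasts passed at the same limits, apart from leukocyte lists, was osteochondral, with 62 cells (9, 15 and 38 in libraries 1, 2 and 3). Of its molecules, 33.1% came from Spp1, 27.4% from Comp, which is also on the activation list, and 25.2% from Sox9. The summed level of this list was not raised in fibroblasts. It had a median of 742.6 CPM over tags, against 3060 CPM in the other cells, and was higher in fibroblasts in 0 of 16 tags. Of its 10 genes, 7 were higher in fibroblasts, 6 of them at least 2-fold, and 3 were at least 2-fold lower. Mural markers passed in 8 fibroblasts, endothelial markers in 4, Schwann cell markers in 1 and cardiomyocyte markers in 0, which allows up to 0.906% of the 331 cells. The general leukocyte list passed in 88, macrophage markers in 77, monocyte markers in 37, neutrophil markers in 5, dendritic cell markers in 2, B cell and erythroid or platelet markers in 1 each and T and NK cell markers in 0. Apoe gave 45.6% of the macrophage list's molecules and Vcan, which encodes a matrix proteoglycan, 60.6% of the monocyte list's. A median of 11.5 CPM in the other cells was the background for the mesothelial list.

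Over the 18 tags, the share of fibroblasts among cells had a median of 1.57% (0.150 to 6.03%). Library 1 had a median of 0.495% (0.150 to 0.846%), library 2 of 1.78% (1.37 to 3.65%) and library 3 of 2.16% (1.73 to 6.03%). The highest tag of library 1 thus lay below the lowest of both other libraries. Tag 8 of library 3 stood far above the other 5 tags of its library, with 58 fibroblasts and a share of 6.03% (95% Clopper-Pearson interval 4.61 to 7.72%, counting error only), while the others ran to 2.37%.

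**Figure D1:**
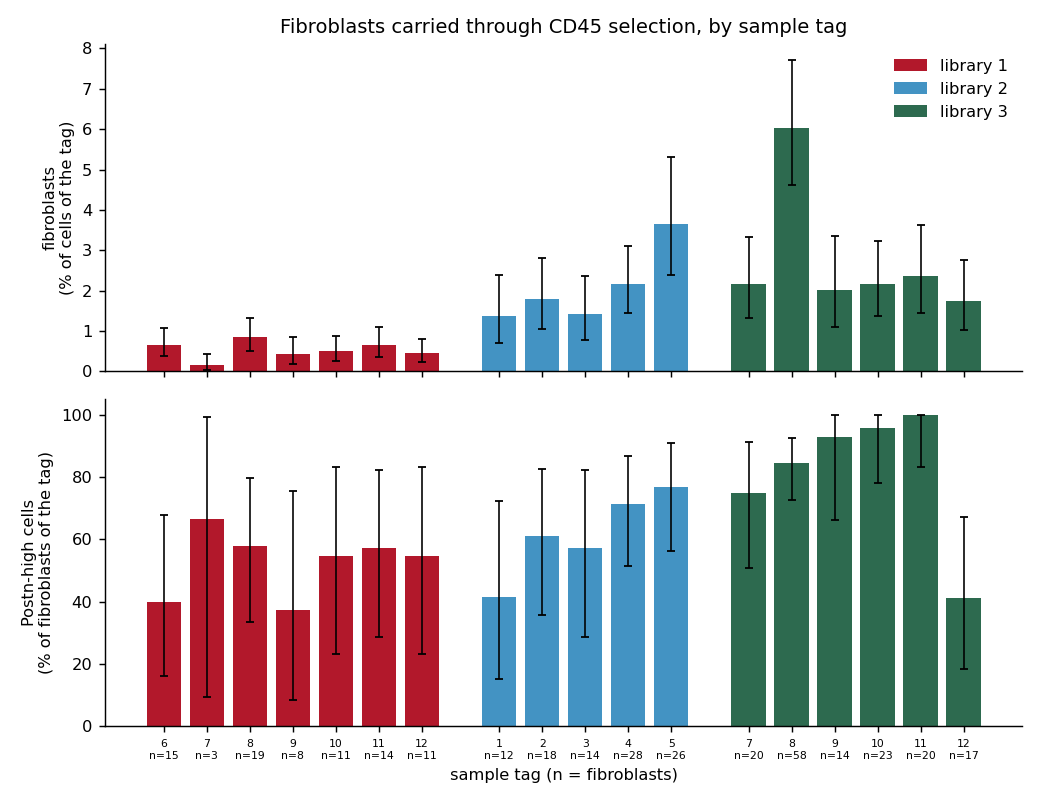
Upper panel: fibroblasts as a percentage of the cells of each sample tag; lower panel: Postn-high cells as a percentage of the fibroblasts of each tag. Bars are coloured by library, and lines are exact 95% binomial intervals, which cover counting error only. All 7 tags of library 1 lie under 0.9% in the upper panel, and tag 8 of library 3 stands out at 6.03%.

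Activation genes were found in most fibroblasts of every library. At 5000 molecules per cell, which 319 of the 331 fibroblasts reached, Postn was found in 85.9% (81.6 to 89.5%), Cthrc1 in 77.4% (72.4 to 81.9%) and Acta2 in 65.8% (60.3 to 71.0%). The background shares in the other cells, thinned to the same depth, were 2.14, 1.16 and 3.52%. All 3 genes were found together in 170 cells, 53.3% (47.7 to 58.9%), and none of them in 18, 5.64% (3.38 to 8.77%). These intervals pool cells over tags and cover counting error only, not the spread between tags. Cthrc1 came without Postn in 19 cells and Postn without Cthrc1 in 46. All 34 genes of the activation list were higher in fibroblasts than in the other cells, 33 of them at least 2-fold.

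Postn differed most widely between tags of library 3. Its lowest, median and highest tag had 1592, 2174 and 3974 CPM (library 1), 2401, 3124 and 4489 CPM (library 2) and 1616, 5380 and 8208 CPM (library 3). In library 3, 5 of the 6 tags lay above the highest of library 1, and tag 12 lay near the bottom of the whole range. Cthrc1 had 730.6, 1176 and 1635 CPM (library 1), 575.1, 959.4 and 1605 CPM (library 2) and 837.4, 1611 and 2449 CPM (library 3). Acta2, the smooth muscle actin of myofibroblasts, had 771.5, 1039 and 1791 CPM (library 1), 1126, 1625 and 2720 CPM (library 2) and 401.1, 1064 and 1774 CPM (library 3). The ranges of Cthrc1 and Acta2 overlapped between all libraries.

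Other activation genes followed different orders. Tnc, a matrix protein of early wounds, had a median of 1627 CPM in library 1 (533.8 to 2305), 416.8 CPM in library 2 (263.8 to 636.6) and 288.7 CPM in library 3 (76.7 to 1070). Comp, a cartilage and scar matrix protein, had a median of 4.53 CPM in library 1 (0 to 38.3), 187.7 CPM in library 2 (115.4 to 491.6) and 532.7 CPM in library 3 (113.8 to 756.0). Comp in library 1 thus stayed under every tag of the other libraries, while the Tnc ranges overlapped. Fmod, a collagen-binding proteoglycan, ran in the same direction as Comp with medians of 37.6, 260.5 and 461.4 CPM in libraries 1, 2 and 3, and its ranges overlapped. Fn1, which encodes fibronectin, had medians of 3545, 4891 and 5699 CPM, and Lox, a collagen cross-linking enzyme, 2269, 1526 and 2592 CPM.

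Separation of library 1 was not particular to the activation genes. Of 3306 genes with a mean of at least 50 CPM, 12.9% had ranges in library 1 that did not overlap those of libraries 2 and 3, with 8.44% above and 4.42% below. Among 31 activation genes tested this way, Adam12, Ckap4 and Loxl2 lay above in library 1 and Comp below, a share close to that background. Of 21 genes of the resting list, only Mgp separated, and lay below. Of 25 genes for matrix assembly, 7 separated: Emilin1, Fbln2, Loxl2, Pcolce2 and Serpinh1 above and Eln and Sparc below. Between libraries 2 and 3, which share beads and pipeline, 1.33% of the 3306 genes had ranges that did not overlap.

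Genes of the resting list were present beside the activation genes. Mgp, an inhibitor of calcification, had 241.7, 634.5 and 867.5 CPM in the lowest, median and highest tag of library 1, with 2711, 2897 and 3586 CPM (library 2) and 2630, 3003 and 3306 CPM (library 3) in the others. All tags of library 1 lay below the lowest value of the other libraries. Ogn, a small matrix proteoglycan, had medians of 1348, 1640 and 2181 CPM in libraries 1, 2 and 3, and Mfap5, a microfibril protein, 1008, 1270 and 1476 CPM. Tcf21 had medians of 166.2, 89.7 and 99.6 CPM. The ranges of Ogn, Mfap5 and Tcf21 overlapped between all libraries. Scara5 and Inmt, also on the list, had medians of 1.86 CPM and 0 over all tags.

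Of 10 cell cycle genes with a mean of at least 50 CPM, Mki67 was the one whose ranges separated library 1 from the others, against 12.9% of all genes. At 5000 molecules per cell, Mki67 or Top2a, both genes of dividing cells, was found in 44.6% of its fibroblasts (33.0 to 56.6%), against 14.9% in library 2 (8.39 to 23.7%) and 9.27% in library 3 (5.16 to 15.1%). These intervals pool the cells of a library and cover counting error only. Mki67 had 203.2, 264.5 and 420.4 CPM in the lowest, median and highest tag of library 1, with 1.83, 19.96 and 138.9 CPM (library 2) and 19.2, 32.3 and 52.2 CPM (library 3) in the others. Its ranges did not overlap between library 1 and the others, while those of Top2a did. At the same depth and over all libraries, Mki67 was found in 13.2% of fibroblasts and 15.4% of the other cells. The parts that beads, pipeline release and time have in these library differences cannot be told apart.

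**Figure D2:**
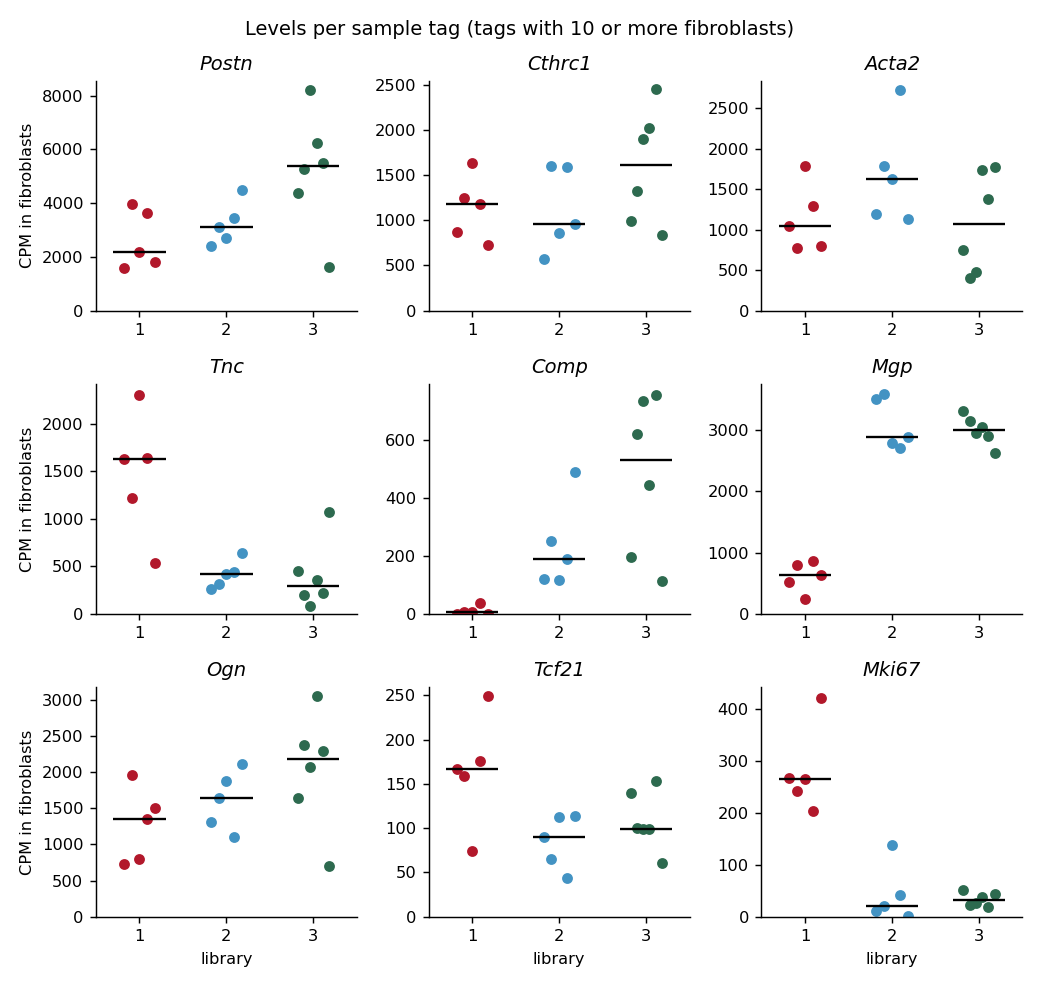
Each point is the level of 1 gene in the fibroblasts of 1 sample tag, in CPM on linear axes that start at 0, for the 16 tags with 10 or more fibroblasts; black lines are medians over the tags of a library. Mgp and Comp lie lower and Mki67 higher in every tag of library 1 than in any tag of the other libraries.

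Postn itself varied over the whole scale between single fibroblasts. It made up a median of 0.312% of a cell's molecules and at most 2.52%, and 33 fibroblasts had no Postn molecule. Cells at or above 0.1% are called Postn-high and the rest Postn-low, which is a range of 1 gene and not a cell type. There were 232 Postn-high and 99 Postn-low cells, with 27 cells between 0.1 and 0.2% and 24 between 0.05 and 0.1%. The Postn-high share had a median of 59.5% over the 16 tags, with medians by library of 54.5% (library 1, 40.0 to 57.9%), 61.1% (library 2, 41.7 to 76.9%) and 88.7% (library 3, 41.2 to 100%).

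**Figure D3:**
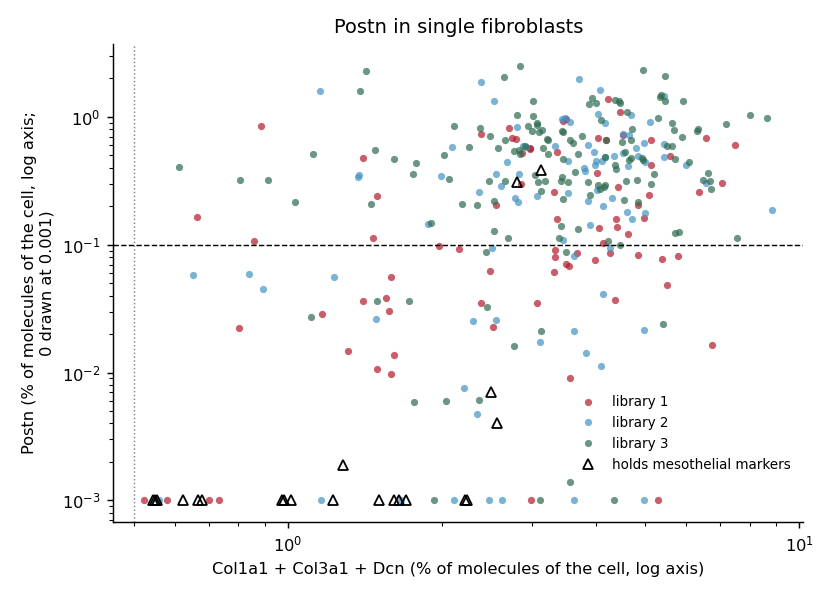
Each point is 1 of the 331 fibroblasts, with the summed share of Col1a1, Col3a1 and Dcn on the horizontal axis and the share of Postn on the vertical axis, both log scaled, and cells with no Postn drawn at 0.001. The dashed line is the 0.1% split, the dotted line the 0.5% limit of the definition, and open triangles are the 21 cells with mesothelial markers, of which 19 lie below the split.

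To ask which genes go with Postn within the cells of a tag, molecules were summed over the Postn-high and the Postn-low cells of each tag. The comparison used the 13 tags with at least 5 cells on each side, 172 Postn-high and 91 Postn-low cells, and edgeR's quasi-likelihood test with the tag as a block. Postn and the genes of the definition were left out of the counts. Of 4601 genes, 674 passed an adjusted p of 0.05, which is 14.6%. Of these, 395 were higher in Postn-high cells (8.59%) and 279 lower (6.06%). Without library 2, 313 genes passed, and without library 3, 350. Tags mark biological replicates per the labels, which do not say whether a tag is 1 animal. With the tag as a block, p values rest on how the difference between both sides varies from tag to tag.

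Both sides differed in more than Postn. Cells with mesothelial markers numbered 2 of 172 Postn-high and 18 of 91 Postn-low cells, 1.16 and 19.8%. All 11 mesothelial genes were found on each side, with a summed level of 0, 2.57 and 833.7 CPM in the lowest, median and highest tag of Postn-high cells and 4.69, 771.7 and 4229 CPM in Postn-low cells. The part that these cells have in the differences was not tested beyond leaving them out. Without the 21 marker cells, a choice made after seeing the data, 9 tags with 92 Postn-high and 57 Postn-low cells remained. Tags left with under 5 cells on a side dropped out whole, so most cells lost to this fit held no mesothelial markers. In it 195 of 4451 genes passed, 4.38%, with 129 higher (2.9%) and 66 lower (1.48%). The part that fewer tags and cells have in lost calls was not tested. Of the 674 genes, 646 could still be tested, all of them kept their direction and 180 passed. Cells with 3 or more of 10 osteochondral genes at 0.1% or more of their molecules lay on the other side, with 38 of 172 Postn-high and 3 of 91 Postn-low cells, 22.1 and 3.30%. Without these cells, also a choice made after seeing the data, 528 of 4066 genes passed, 13%, with 314 higher (7.72%) and 214 lower (5.26%). Within tags, the median number of molecules per cell was higher on the Postn-high side in 7 of 13 tags and lower in 6. The collagen and Dcn share was higher in Postn-high cells in 12 of 13 tags, and the leukocyte list in 5 of 13.

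The rule for named genes, which asked for a mean of at least 50 CPM and the same sign in 80% of tags, gave 12 genes that rose in Postn-high cells. Fmod had 0, 289.2 and 933.8 CPM in the lowest, median and highest tag of Postn-high cells, against 0, 6.01 and 137.7 CPM in Postn-low cells. The difference was 4.22 on the log2 scale (SE 0.43, edgeR adjusted p = 1.05e-05) and held in 12 of 13 tags. Aspn, a proteoglycan that binds collagen, had 921.3, 2554 and 4414 CPM in Postn-high cells, against 37.6, 151.4 and 462.8 CPM in Postn-low cells. Its ranges did not overlap, and the log2 difference was 3.88 (SE 0.35, edgeR adjusted p = 4.18e-06). Cilp, a matrix protein of cartilage and scar, rose by 4.20 (SE 0.55) and Ddah1, which breaks down methylated arginine, by 3.80 (SE 0.44). Ctgf (Ccn2), a matrix-associated growth factor of the TGF-beta response, had 1183, 2540 and 5050 CPM in Postn-high cells, against 78.2, 388.4 and 1306 CPM in Postn-low cells, a log2 difference of 2.84 (SE 0.28, edgeR adjusted p = 6.07e-06).

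Rflnb, a filamin-binding protein, rose by 3.99 on the log2 scale (SE 0.45), the third largest difference of the 12, and its level was 37.6, 383.6 and 626.6 CPM in the lowest, median and highest tag of Postn-high cells, against 0, 14.5 and 37.3 CPM in Postn-low cells. Rgs4, a brake on G protein signalling, rose by 3.73 (SE 0.48), the potassium channel gene Kcnj15 by 3.47 (SE 0.70) and Fibin by 3.25 (SE 0.37). Fxyd6, a regulator of the sodium pump, rose by 2.88 (SE 0.30), the collagen gene Col8a2 by 2.87 (SE 0.45) and Serpine2, an inhibitor of thrombin and plasminogen activators, by 2.80 (SE 0.38). Of these 12 genes, 11 passed again without the cells that held mesothelial markers, and Kcnj15 did not (edgeR adjusted p = 0.0694). Without library 2, Kcnj15 (2.74, edgeR adjusted p = 0.0945) did not pass, and Fmod and Col8a2 were too low to be tested. Kcnj15 had log2 differences of 1.57, 4.69 and 8.98 in libraries 1, 2 and 3 alone. Without library 1 the differences were larger for Rflnb (5.44), Aspn (4.65), Ddah1 (5.47), Rgs4 (6.05), Kcnj15 (5.33), Fibin (4.42), Fxyd6 (3.49) and Serpine2 (3.70) and smaller for Cilp (3.56). Without library 2 they stood at 3.12 for Rflnb, 3.10 for Ddah1 and 3.05 for Rgs4. Cilp did not pass without the cells in the top 10% of molecules (edgeR adjusted p = 0.0773).

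Genes lower in Postn-high cells included several that no longer passed without the cells that held mesothelial markers, a fit with 9 of the 13 tags. Ptgs1, a cyclooxygenase, had 0, 2.89 and 37.5 CPM in the lowest, median and highest tag of Postn-high cells, against 6.26, 192.8 and 469.0 CPM in Postn-low cells, and fell by 4.19 on the log2 scale (SE 0.46, edgeR adjusted p = 1.73e-05), in 13 of 13 tags. Clu, a secreted chaperone, fell by 3.70 (SE 0.60), Igfbp3, a binding protein of insulin-like growth factors, by 2.99 (SE 0.74), Slc9a3r1, a membrane scaffold, by 2.87 (SE 0.42), and Ezr, which links membrane and actin, by 2.69 (SE 0.55). The water channel gene Aqp1 fell by 2.66 (SE 0.62), the matrix genes Spon2 and Emilin2 by 2.37 (SE 0.57) and 2.17 (SE 0.48), Cav1, the caveolae protein, by 2.17 (SE 0.47), Steap4, a metalloreductase, by 1.92 (SE 0.44) and the predicted gene Gm20186 by 2.10 (SE 0.28). Without the cells that held mesothelial markers, Ptgs1, Igfbp3, Slc9a3r1 and Ezr were too low to be tested. Aqp1, Spon2, Emilin2 and Cav1 no longer passed, with edgeR adjusted p values of 0.151, 0.0588, 0.0768 and 0.0667, and Clu, Gm20186, Steap4 and Ccl2 still passed. Without library 2, Igfbp3 (-2.03), Aqp1 (-2.13), Spon2 (-1.84), Emilin2 (-1.29) and Steap4 (-1.18) did not pass, and without library 3 Spon2 (-1.95) did not. Without library 1, Spon2 (-3.42), Emilin2 (-3.68), Cav1 (-2.88) and Steap4 (-2.83) lay further from 0. With the split at 0.05%, Aqp1, Cav1, Steap4 and Ccl2 did not pass, with edgeR adjusted p values of 0.137, 0.0615, 0.230 and 0.153.

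**Figure D4:**
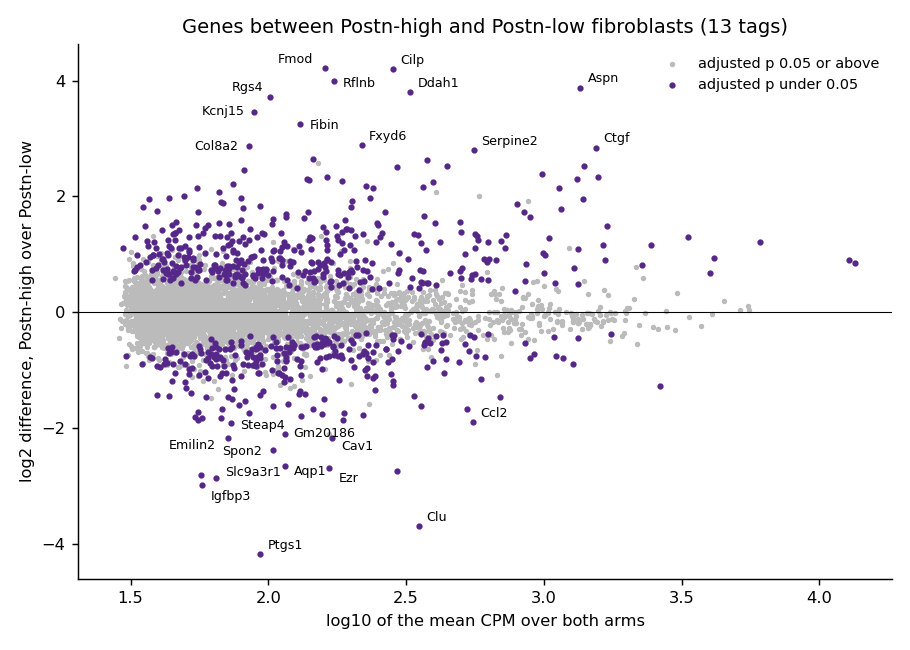
Log2 difference of each of 4601 genes between Postn-high and Postn-low fibroblasts against the log10 of its mean CPM over both; purple points passed an adjusted p of 0.05. The 24 genes given by the rule for named genes are labelled, with Fmod and Cilp at the top and Ptgs1 and Clu at the bottom.

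Most activation genes that changed were higher in Postn-high cells. Of 29 tested beside Postn, 16 rose, against 8.59% of all genes, 1 fell, against 6.06%, and 12 did not pass, and the median log2 difference was 1.37, against -0.01 over all 4601 genes. Cthrc1 had 933.8, 1577 and 2644 CPM in the lowest, median and highest tag of Postn-high cells, against 107.7, 305.2 and 831.6 CPM in Postn-low cells. The groups did not overlap, and the log2 difference was 2.39 (SE 0.28, edgeR adjusted p = 2.79e-05). Lox rose by 1.48 (SE 0.23) and Fn1 by 0.68 (SE 0.17), both in 11 of 13 tags. Fn1 did not pass without library 1 (0.64, edgeR adjusted p = 0.128) or without the cells that held mesothelial markers (0.49, edgeR adjusted p = 0.298). Col8a1, a short-chain collagen, rose by 2.54 (SE 0.37), the homeobox gene Meox1 by 2.64 (SE 0.46) and Ltbp2, a microfibril protein, by 2.26 (SE 0.34). Without library 1 these stood at 3.58, 3.49 and 3.01, and without library 2 Col8a1 stood at 1.88. Without library 1, 2 or 3, 16 of 29, 14 of 28 and 14 of 28 activation genes rose. Over all genes, 281 of 3265, 174 of 5344 and 220 of 4679 rose in these fits.

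Acta2 had 469.9, 1366 and 3664 CPM in the lowest, median and highest tag of Postn-high cells, against 146.5, 687.0 and 2196 CPM in Postn-low cells. These ranges overlapped, and its log2 difference of 1.11 (SE 0.40) did not pass (edgeR adjusted p = 0.0655). Tagln, an actin-binding protein of smooth muscle, rose by 1.73 (SE 0.44, edgeR adjusted p = 0.0131), but did not pass without library 1 (1.78, edgeR adjusted p = 0.113) or without the cells that held mesothelial markers (edgeR adjusted p = 0.251). Actn1, which cross-links actin, rose by 0.57 (SE 0.13, edgeR adjusted p = 0.00668), but did not pass without library 2 (0.41), library 3 (0.53) or the mesothelial marker cells (edgeR adjusted p = 0.0985). Tpm1 and Tpm2, the tropomyosins, had log2 differences of -0.34 (SE 0.29) and 0.30 (SE 0.39). Timp1, an inhibitor of metalloproteinases, was the activation gene that fell, by 0.90 (SE 0.28, edgeR adjusted p = 0.0366), and did not pass without library 2 (-0.74) or 3 (-0.56). Tnc had a log2 difference of -0.083 (SE 0.75) that did not pass (edgeR adjusted p = 0.966), with 2.23 in library 1 alone and -1.54 and -1.90 in libraries 2 and 3 alone. With the mesothelial marker cells left out, 10 of the 29 activation genes rose, against 2.9% of all genes, and Timp1 did not pass.

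The resting list did not move in 1 direction. Of 22 genes tested, 5 rose in Postn-high cells, against 8.59% of all genes, 2 fell, against 6.06%, and 15 did not pass. The median log2 difference was 0.16. Ogn had 1037, 2056 and 3628 CPM in the lowest, median and highest tag of Postn-high cells, against 163.9, 383.5 and 1443 CPM in Postn-low cells, and rose by 2.30 (SE 0.28) in 13 of 13 tags. Mfap5 rose by 2.15 (SE 0.26), Col15a1, a basement membrane collagen, by 1.65 (SE 0.29), Dpt by 1.24 (SE 0.26) and Cygb, a globin, by 0.92 (SE 0.28). C3, the central complement protein, fell by 1.67 (SE 0.39) and Efemp1, a fibulin, by 1.87 (SE 0.62). Tcf21 and Mgp had log2 differences of 1.16 (SE 0.43) and 0.78 (SE 0.45) that did not pass. When the mesothelial marker cells were left out, 3 of 20 rose (Ogn, Mfap5 and Col15a1), against 2.9% of all genes. In that fit 1 fell (C3), against 1.48%. Without library 2, Ogn, Mfap5 and Dpt passed, while Col15a1 (1.34), Cygb (0.54), C3 (-1.12) and Efemp1 (-1.57) did not. Cygb (0.82) did not pass without library 3 either.

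TGF-beta, the growth factor that drives matrix production, is secreted in a latent form that binding proteins hold in the matrix. In fibroblasts the ligand genes Tgfb2 and Tgfb3 had medians of 130.5 and 257.4 CPM, against 3.71 and 9.91 CPM in the other cells, while Tgfb1 had 17.8 CPM, against 59.99 CPM in the other cells. In Postn-high cells, 12 of 27 genes of this list rose, against 8.59% of all genes, and 15 did not pass. The median log2 difference was 0.55. Tgfb3 had 118.6, 330.4 and 483.8 CPM in the lowest, median and highest tag of Postn-high cells, against 34.4, 79.5 and 213.4 CPM in Postn-low cells, a log2 difference of 1.92 (SE 0.23, edgeR adjusted p = 2.9e-05). The latent binding proteins Ltbp2, Ltbp3 and Ltbp4 rose by 2.26, 0.72 and 1.55, and Thbs1 and Thbs2, the thrombospondins, by 1.79 (SE 0.32) and 2.16 (SE 0.36). Cyr61 (Ccn1), a matrix-associated signal protein, rose by 1.29 (SE 0.20). The receptor genes Tgfbr1, Tgfbr2 and Tgfbr3 had log2 differences of -0.46, 0.16 and -1.19, none of which passed. After the mesothelial marker cells were left out, 8 of 26 genes rose, against 2.9% of all genes. Without library 1, 2 or 3, 10 of 23, 8 of 27 and 9 of 27 rose. Over all genes, 281 of 3265, 174 of 5344 and 220 of 4679 rose in these fits. Ltbp3 did not pass in any of these fits, with log2 differences of 0.85, 0.59 and 0.73. Without library 1, Ltbp2 and Thbs2 stood at 3.01 and 2.79.

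Genes that assemble collagen and elastic fibres rose in part. Of 25, 12 rose, against 8.59% of all genes, 1 fell, against 6.06%, and 12 did not pass. The median log2 difference was 0.62. Fbln5, which guides elastic fibres, had 123.4, 678.6 and 1638 CPM in the lowest, median and highest tag of Postn-high cells, against 34.4, 86.8 and 332.9 CPM in Postn-low cells, and rose by 2.53 (SE 0.31). Mfap4 rose by 2.33 (SE 0.33), Eln, which encodes elastin, by 1.95 (SE 0.45) and Sparc by 0.85 (SE 0.13). Serpinh1, the collagen chaperone, had a log2 difference of 0.34 (SE 0.15) that did not pass, and Tgm2, a cross-linking enzyme, fell by 1.498 (SE 0.35). The hydroxylase genes P4ha1 and P4hb stood at -0.12 (SE 0.18) and 0.00 (SE 0.14). Leaving out the mesothelial marker cells, 8 of 25 rose, against 2.9% of all genes, with Eln no longer among them (edgeR adjusted p = 0.1). Without library 2, 7 rose, against 174 of 5344 over all genes, and Eln (1.20) and Tgm2 (-1.42) did not pass. Eln stood at 2.73 without library 1.

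Of 23 genes of the fibroblast list tested outside the definition, 11 rose (8.59% over all genes), 1 fell (6.06%) and 11 did not pass. Bgn rose by 1.22 (SE 0.19), Col1a2 by 0.90 (SE 0.17) and Tbx20, a cardiac transcription factor, by 1.97 (SE 0.44). Pdgfra had 42.7, 137.6 and 494.7 CPM in the lowest, median and highest tag of Postn-high cells, against 112.7, 268.5 and 551.1 CPM in Postn-low cells. It fell by 0.86 (SE 0.23, edgeR adjusted p = 0.0188), in 10 of 13 tags. The call did not hold without library 1 (edgeR adjusted p = 0.0792), without library 2 (0.269), with no tag block (0.0727), with the split at 0.05% (0.157) or without the cells in the top 10% of molecules (0.704). Alone, libraries 1, 2 and 3 gave -0.76, -1.41 and -0.08. Without the cells that held mesothelial markers, Pdgfra fell by 1.24 and 7 of the 23 rose, against 2.9% of all genes. Col1a2 was no longer among those that rose (edgeR adjusted p = 0.0756). Without library 2, 6 of 23 rose, against 174 of 5344 over all genes, and Tbx20 (1.40) did not pass. Of the genes of the definition, Col1a1, Col3a1 and Dcn had log2 differences of 0.93, 0.73 and 0.04, which are given as a description only. Their summed share, which set the cells, was itself higher in Postn-high cells in 12 of 13 tags. With that share at 2% or more, 3 tags were left. Col1a2, Col5a1 and Lum, each at 0.90 with 13 tags, then stood at 0.07, 0.04 and 0.81. Pdgfra stood at -1.28, and none of the 4 passed.

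Among proteases and their inhibitors, 6 of 15 genes rose (8.59% over all genes), 3 fell (6.06%) and 6 did not pass. Mmp2, a gelatinase, rose by 1.12 (SE 0.27), Ctsk, a collagen-cleaving cathepsin, by 1.60 (SE 0.32) and Timp2 by 0.50 (SE 0.16). Timp3 had a log2 difference of 0.54 (SE 0.25) that did not pass. Plaur, the urokinase receptor, and Mmp19 fell by 1.43 (SE 0.27) and 1.20 (SE 0.26), each in 12 of 13 tags. With the mesothelial marker cells left out, 2 rose (2.9% over all genes) and 3 fell (1.48%), and Mmp2 (0.50, edgeR adjusted p = 0.252) and Timp2 (edgeR adjusted p = 0.308) did not pass. Mmp2 did not pass either with the split at 0.05% (edgeR adjusted p = 0.282) or without the cells in the top 10% of molecules (0.118). Without library 2, 1 of 15 genes rose (Serpinf1), against 174 of 5344 over all genes, and 0 fell, against 139 of 5344. Mmp2 (1.15), Ctsk (1.11), Timp2 (0.62), Plaur (-1.03), Mmp19 (-0.96) and Timp1 (-0.74) did not pass in that fit. Timp2 (0.57) did not pass without library 1, and Timp2 (0.36) and Mmp19 (-0.97) not without library 3.

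Of 17 tested genes of cytokines and cytokine receptors, 6 fell in Postn-high cells, against 6.06% of all genes, and 11 did not pass. The median log2 difference was -0.71. Without library 1, 2 or 3, 5 of 15, 1 of 16 and 4 of 17 fell. Over all genes, 198 of 3265, 139 of 5344 and 130 of 4679 fell in these fits. Ccl2, the chemokine that draws monocytes, had 33.9, 193.1 and 708.8 CPM in the lowest, median and highest tag of Postn-high cells, against 166.5, 842.4 and 1918 CPM in Postn-low cells. It fell by 1.90 (SE 0.38, edgeR adjusted p = 0.00274), in 12 of 13 tags, and was the gene that still fell without library 2 (by 1.54, edgeR adjusted p = 0.0303). It fell by 2.57 without library 1, and did not pass with the split at 0.05% (-1.07, edgeR adjusted p = 0.153). Ccl7, a related chemokine, fell by 1.78 (SE 0.51), Cxcl5, which attracts neutrophils, by 2.74 (SE 0.73), the interleukin-1 receptor gene Il1r1 by 1.19 (SE 0.23), the oncostatin M receptor gene Osmr by 0.94 (SE 0.20) and Mif by 0.76 (SE 0.20). Without library 2, these stood at -1.09 for Ccl7, -2.58 for Cxcl5, -0.83 for Il1r1, -0.71 for Osmr and -0.64 for Mif, none of which passed. Osmr (-0.87) did not pass without library 1 either, nor Ccl7 (-1.90), Cxcl5 (-2.43) and Mif (-0.66) without library 3. With no tag block, Ccl7 and Cxcl5 did not pass (edgeR adjusted p = 0.146 and 0.194). Cxcl1 and Cxcl2, further neutrophil chemokines, had log2 differences of -0.55 (SE 0.22) and -0.54 (SE 0.29) that did not pass. Without the cells that held mesothelial markers, 6 of 17 genes fell again, against 1.48% of all genes. Il33 (log2 difference -2.12, edgeR adjusted p = 0.00206) was among them in place of Mif.

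Of 11 genes for complement and coagulation, 2 rose (8.59% over all genes), 4 fell (6.06%) and 5 did not pass. C1s1, a protease of the first complement component, fell by 1.35 (SE 0.34), C4b by 1.33 (SE 0.41) and Anxa2, a plasminogen co-receptor, by 0.78 (SE 0.19). The thrombin receptor gene F2r rose by 1.298 (SE 0.29). Serping1, the inhibitor of the first complement component, had a log2 difference of 0.14 (SE 0.19). Without library 2, C3 (-1.12), C1s1 (-0.81), C4b (-1.16) and Anxa2 (-0.66) did not pass. C4b (-1.54) and F2r (1.25) did not pass without library 1, nor C1s1 (-1.30) and Anxa2 (-0.57) without library 3. Without the cells that held mesothelial markers, Serpine2 rose, C3 and C1s1 fell, and C4b was too low to be tested.

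Genes of a glycolysis and hypoxia list were lower in Postn-high cells in part, with 5 of 11 lower, against 6.06% of all genes, and 6 that did not pass. Pkm, a late enzyme of glycolysis, had 111.3, 284.8 and 601.8 CPM in the lowest, median and highest tag of Postn-high cells, against 395.0, 578.4 and 794.0 CPM in Postn-low cells. It fell by 1.06 (SE 0.18, edgeR adjusted p = 0.000942). Without the cells that held mesothelial markers, 3 of 11 were lower, against 1.48% of all genes: Pkm, Hk2 and Hif1a. Without library 2, Pkm alone of 11 was lower, against 139 of 5344 over all genes. At 5000 molecules per cell, Mki67 or Top2a was found in 12 of 34 Postn-high and 20 of 30 Postn-low cells of library 1, 35.3% (19.8 to 53.5%) and 66.7% (47.2 to 82.7%). In library 2 these were 5 of 61 Postn-high and 5 of 33 Postn-low cells, 8.20% (2.71 to 18.1%) and 15.2% (5.11 to 31.9%). In library 3 they were 4 of 71 Postn-high and 8 of 24 Postn-low cells, 5.63% (1.56 to 13.8%) and 33.3% (15.6 to 55.3%). The pooled share was thus lower on the Postn-high side in each library. The intervals overlapped in libraries 1 and 2 and cover counting error only, not the spread between tags. In library 3, tag 8 gave 49 of the 71 Postn-high cells and tag 12 gave 10 of the 24 Postn-low cells. Within tags, the summed level of 18 cell cycle genes was lower in Postn-high cells in 9 of 13 tags and higher in 4. Of 11 cell cycle genes, edgeR called 0, with a median log2 difference of -1.06. At an unadjusted p under 0.05, 7 of them were lower, against 675 of all 4601 genes. DESeq2 called 5 lower, against 417 of all 4601 genes. Of 18 immediate early genes, 4 rose, against 8.59% of all genes. These were Fos, Jun, Egr2 and Klf2, by 0.81, 0.76, 1.35 and 1.42 on the log2 scale. In edgeR, 0 of the 18 passed without the cells that held mesothelial markers. Of 18 genes of the secretory pathway, 3 fell, against 6.06% of all genes. Hspa5, Canx and Xbp1, which serve protein folding, fell by 0.38, 0.37 and 0.50, and 0 passed without the mesothelial marker cells. Without library 2, Egr2 rose, and Fos (0.68), Jun (0.67), Klf2 (0.83), Hspa5 (-0.33), Canx (-0.35) and Xbp1 (-0.48) did not pass.

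**Figure D5:**
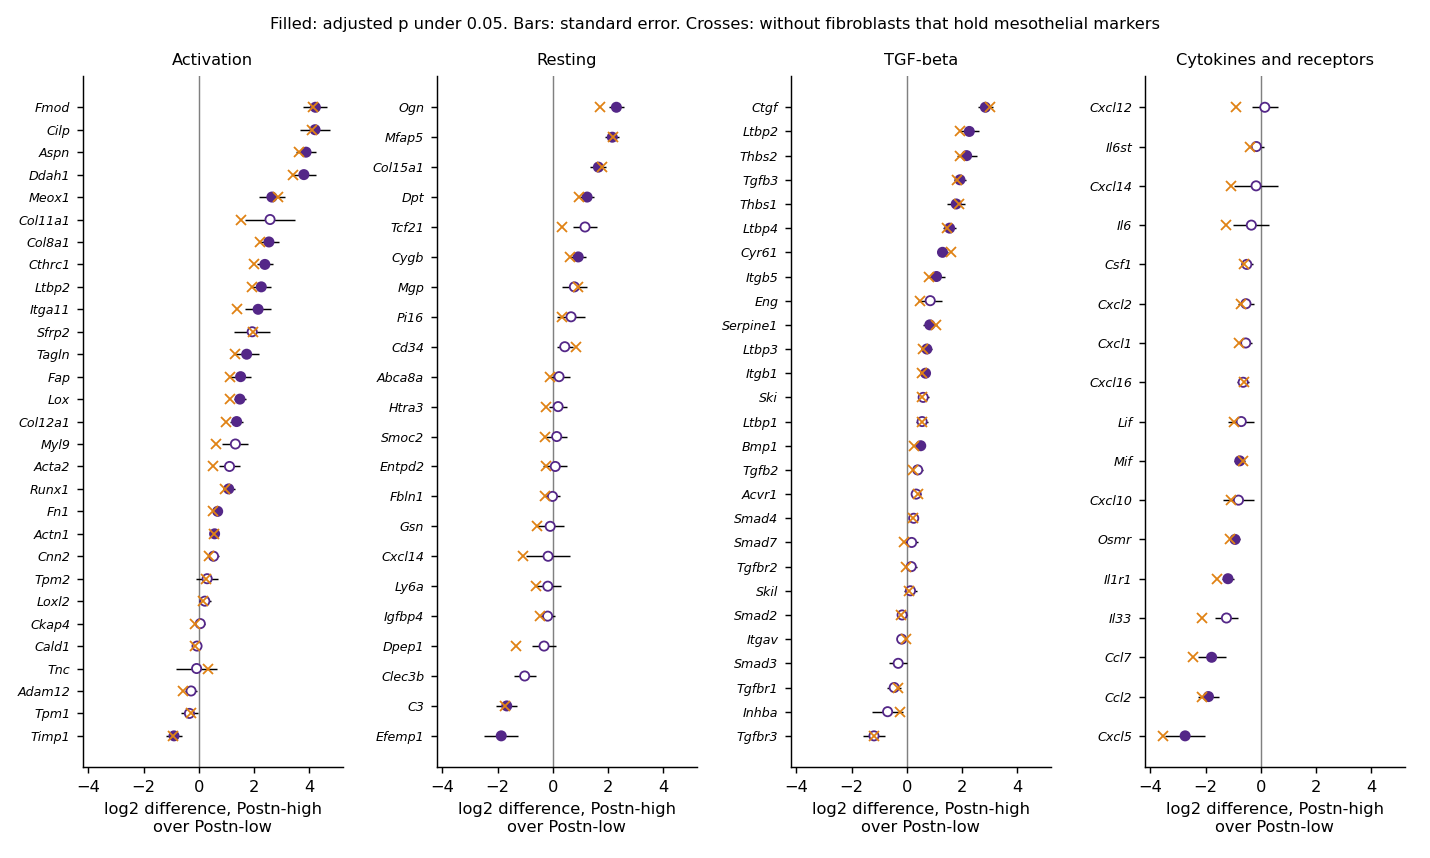
Log2 difference of each tested gene of 4 lists between Postn-high and Postn-low fibroblasts (13 tags), with its standard error as a bar; filled points passed an adjusted p of 0.05, and crosses are the values without the cells that held mesothelial markers. Most filled activation and TGF-beta genes lie to the right of 0 and all filled cytokine and receptor genes to the left.

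Of the 77 called genes named here, 33 passed without each library in turn. Without library 2, 37 of 73 that could be tested passed, without library 1 63 of 74 and without library 3 58 of 74. With the split at 0.05%, 49 of 77 passed, with no tag block 63 of 77, and DESeq2 called all 77. Each of the 77 genes kept its direction in these fits where it was tested. The 77 include genes picked for large differences in these same data. Of all 674 calls, 364 of 582 tested passed again without library 1, 243 of 663 without library 2 and 326 of 664 without library 3. For the split at 0.05%, no tag block and DESeq2, these were 216 of 645, 542 of 674 and 669 of 674. The number of calls differed between libraries. Fitted alone, library 1 gave 124 calls from 5 tags, library 2 gave 275 from 5 and library 3 gave 75 from 3. Of the 674 genes, 653 of 660 tested had the same sign in library 1, 563 of 563 in library 2 and 650 of 659 in library 3, but these genes were called with the same tags. Cthrc1 had log2 differences of 2.36, 2.76 and 1.83 in libraries 1, 2 and 3, and Aspn of 2.81, 4.64 and 4.69. Ccl2 had -0.93, -2.68 and -2.42. Differences between libraries in these values were not tested.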

How the data were processed

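The deposited values are counts of molecules for each gene in each cell, after removal of duplicate reads and correction of identifier errors (RSEC), per the file headers. Library 1 came from pipeline 2.0b1 with enhanced beads and intronic reads, libraries 2 and 3 from release 1.10 with V1 beads, per the file headers, all on GRCm38 with GENCODE M19. The alignment settings and the handling of reads from near-identical genes were not given in the sources used here. The 18 files held 25762 cells. Each library counts as 1 sample of 1 group, and tags have no group.

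Fibroblasts were defined as in the report. The members and gene lists were chosen with earlier results of these data known, and the limits for mesothelial and osteochondral marker cells (3 markers, 0.1%) after seeing the data. Libraries 1 and 2 shared 4 cell barcodes, libraries 1 and 3 shared 3, and libraries 2 and 3 shared 0. Doublets were not called. The 107 fibroblasts in the top 10% of molecules of their tag were left out in an alternative.

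Counts were summed per tag and side of the Postn split and tested with edgeR 4.0.16 (R 4.3.3): TMM, filterByExpr, quasi-likelihood F test, tag as a block because both sides come from the same tag, Benjamini-Hochberg over all genes, threshold 0.05. The design had asked for 10 cells per side, which 0 tags reached, so its alternative of 5 was used. Sums held 81387 to 985402 molecules for Postn-high and 108137 to 638983 for Postn-low cells. On simulated counts for this comparison (4620 genes), 57 of 100 genes changed 2-fold and 100 of 100 changed 4-fold were recovered, with 7 false calls. The simulation gave every gene the same dispersion around 1 common profile, with no differences between tags or libraries. Its counts therefore do not give the error rates in the data. Named genes were the up to 12 largest differences in each direction that passed, with a mean of at least 50 CPM and the same sign in 80% of tags, plus list genes, including the 3 with the highest CPM of each list. Intervals are exact Clopper-Pearson at 95% and cover counting error only. DESeq2 1.42.0 was an alternative test.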

Additional observations from a re-analysis of the deposited data

Results flagged for a closer look

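Within each library, the highest and lowest tag were compared with the spread of the others for 5 measures, in 15 sets of 5 to 7 tags, of which 2 held a tag far from the others. Chance flags about 1 in 20 groups. The fibroblast share of tag 8 in library 3 was 6.03%, and its gap to the next of the 6 tags was 0.852 of their range. The Postn-high share of tag 6 in library 1 was 40.0%, and its gap to the next of 5 tags was 0.813 of their range. That share rests on 6 of 15 cells, with a 95% Clopper-Pearson interval of 16.3 to 67.7% that spans the values of the other tags. Without tag 8 of library 3, 553 genes passed between Postn-high and Postn-low cells, and without tag 6 of library 1, 633.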

How the results depend on the processing

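The 674 calls between Postn-high and Postn-low cells became 695 with DESeq2 size factors, 885 with the DESeq2 test, 627 with no replicate block, 711 with the split at 0.2% and 715 with the leukocyte list below 1%. They moved further to 1197 with no low-count filter, 237 with the split at 0.05%, 251 without cells in the top 10% of molecules (5 tags) and 51 of 195 genes at 2000 molecules per cell. With collagen and Dcn at 2% or more, 3 tags were left and 0 genes passed in edgeR, with 425 at an unadjusted p under 0.05 and 643 of 657 in the same direction. The same direction did not always mean a like size, with Col1a2 at 0.07 in place of 0.90 and Aspn at 4.01 in place of 3.88. Leaving out library 1, 2 or 3 gave 479, 313 and 350 calls and leaving out a tag 547 to 825, and alone the libraries gave 124, 275 and 75. Without mesothelial marker cells 195 passed (9 tags) and without osteochondral marker cells 528 (13 tags). The fits without single tags, of single libraries and without marker cells were added after seeing the data. For 106 named or list genes, 3143 values under 31 alternatives kept their direction except C4b (0.18) and Klf2 (-0.38) with collagen and Dcn at 2%, and 622 no longer passed; the cause was not tested. At least 10 or 20 cells per side left no tag and was not run. Medians per tag moved by less than 1 SD between tags in each alternative: the fibroblast share lay between 0.751 and 2.15%, Postn between 2696.5 and 4490 CPM, Cthrc1 between 898.0 and 1441 CPM, Acta2 between 772.7 and 1506 CPM and the Postn-high share between 55.6 and 76.9%. With 5 to 49 cells per side and tag, genes of low level could not be tested.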

Other observations

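Among cartilage and bone genes, Sox9, a transcription factor of cartilage, had a median of 181.0 CPM in fibroblasts (96.0 to 402.2), against 2.14 CPM in the other cells. Acan and Col2a1, cartilage matrix genes, had medians of 0 in library 1, of 50.7 and 9.59 CPM in library 2 and of 60.2 and 72.3 CPM in library 3. Bglap and Ibsp, genes of bone, had no molecule in any fibroblast. In the comparison above, Sox9 was the one of 3 tested genes of this list that rose in Postn-high cells (8.59% over all genes). It did not pass without the cells that held mesothelial markers.

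Fibroblasts also held transcripts of factors that act on leukocytes. Cxcl12, which retains many leukocytes in tissue, had a median of 372.0 CPM (186.7 to 615.6), against 2.77 CPM in the other cells. Il33, an alarm cytokine, had 133.4 CPM (35.6 to 494.3), against 1.96 CPM, and Csf1, the growth factor of macrophages, 130.3 CPM (63.9 to 404.7), against 23.3 CPM. Cxcl2 had 606.0 CPM (351.9 to 1221), against 2850 CPM in the other cells, and was lower in fibroblasts in all 16 tags. These differences follow from comparing fibroblasts with leukocytes and were not tested.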
